A study of Macaca mulatta with 8 samples.

Results

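The 1166 regions described here are promoters of the rhesus macaque genome at which an ATAC-seq peak was called in cortex cells of post-conceptional day 60 (E60) and at no other stage studied. They were selected on the calls themselves: autosomal regions of the authors' merged peak table that hold at least 1 peak named for E60 and none named for E50, E80 or E85, and that overlap the 1000 bp on either side of an annotated start of a protein-coding or long noncoding RNA (lncRNA) gene. They make up 10.3% of the 11291 autosomal regions called at E60 alone, and the whole table has 72358 regions that any stage peak touches. A further 82 such promoters on the X chromosome were not counted. Because the calls chose these regions, their presence at E60 and absence elsewhere is the definition of the set and not a result.

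ATAC-seq uses the Tn5 transposase to cut and tag DNA that is not wrapped tightly in nucleosomes, so a peak marks open chromatin. The series profiled Macaca mulatta primary cortex cells of post-conceptional days 50, 60, 80 and 85 (E50, E60, E80 and E85), with 1 culture per stage and 2 technical libraries from each culture, 8 libraries in all. At every stage the tissue had been frozen, thawed, dissociated with papain and plated in a medium with FGF2, EGF and BDNF that enriches for progenitors, so the cells are cultured cells and not fresh cortex, and no stage had another treatment or a genetic change. E60 had the largest peak set, 61956 peaks, against 60278 for E80, 30701 for E85 and 19833 for E50. With 1 culture per stage there is no replicate check on any call, and stage, animal, culture and sequencing depth cannot be told apart. A region without a call may have been open below the calling threshold. No test was therefore made, and intervals given here are exact Clopper-Pearson 95% intervals for shares and order-statistic 95% intervals for medians, which cover counting error alone.

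A promoter is the stretch of DNA around a transcription start where RNA polymerase and its general factors assemble. Promoters of housekeeping genes usually lie in CpG islands, stretches rich in unmethylated CG dinucleotides, and are open in most cells, whereas genes that act in few cell types more often use CpG-poor promoters, alternative starts, or CpG islands that are held closed by Polycomb proteins until the gene is needed. In the developing cortex, radial glia divide at the ventricle and give rise to intermediate progenitors and neurons, with deep-layer neurons born before upper-layer neurons and astrocytes formed last.

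Sequences upstream of 8 starts are printed as examples. They were taken in order of region width with a limit on how many share a motif class. The variety of their marked motifs follows from that choice and does not describe the set. In 7 of them a motif is marked, the same in DPP6 and UPF3A, and in the other none was found. Each is the 200 bases before the start covered by a wide E60-alone region, without an annotated exon, read from the NCBI Mmul_10 assembly 5′ to 3′ on the gene's strand. Capitals mark every match of 1 named motif on either strand, a short DNA word that a factor family is known to bind; other motifs may be present and are not marked. DPP6 lies at chr3:179867246-179867445 (plus strand) and carries the SP/KLF word GGGCGG, UPF3A at chr17:95350132-95350331 (plus strand) carries it 9 times in a run of repeats of 89% GC, TNK2 at chr2:720634-720833 (minus strand) the proneural E-box CAGCTG, DBX2 at chr11:44512382-44512581 (minus strand) an NFI site (TTGGCA, read on the other strand), TCF4 at chr18:24770111-24770310 (plus strand) a POU octamer, and GRIN2B at chr11:15370493-15370692 (minus strand) the core of the CTCF motif. CACNB4 at chr12:39240174-39240373 (minus strand) carries a match of the loose AP-1 word TGANTCA, where N is any base and here T. ELAVL2 at chr15:59896747-59896946 (plus strand) held none of the 28 motifs searched.
DPP6: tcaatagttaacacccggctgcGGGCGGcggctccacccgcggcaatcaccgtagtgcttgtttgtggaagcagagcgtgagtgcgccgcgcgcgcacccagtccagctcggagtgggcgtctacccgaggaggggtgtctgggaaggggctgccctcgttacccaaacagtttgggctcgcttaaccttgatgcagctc
TNK2: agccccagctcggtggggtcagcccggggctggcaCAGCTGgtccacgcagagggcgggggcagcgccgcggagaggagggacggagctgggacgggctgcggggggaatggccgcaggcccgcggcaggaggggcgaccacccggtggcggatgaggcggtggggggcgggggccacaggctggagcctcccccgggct
UPF3A: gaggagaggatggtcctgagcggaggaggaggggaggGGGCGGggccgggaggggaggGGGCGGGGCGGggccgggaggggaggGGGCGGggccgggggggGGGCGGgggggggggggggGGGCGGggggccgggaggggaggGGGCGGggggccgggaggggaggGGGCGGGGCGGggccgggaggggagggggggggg
DBX2: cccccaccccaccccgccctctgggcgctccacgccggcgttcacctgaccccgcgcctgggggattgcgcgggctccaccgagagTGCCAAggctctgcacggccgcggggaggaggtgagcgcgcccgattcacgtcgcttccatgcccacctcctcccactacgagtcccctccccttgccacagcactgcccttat
TCF4: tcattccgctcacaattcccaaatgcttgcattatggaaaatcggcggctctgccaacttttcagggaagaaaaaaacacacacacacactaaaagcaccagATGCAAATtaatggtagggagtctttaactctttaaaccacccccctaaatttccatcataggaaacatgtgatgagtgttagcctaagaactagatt
GRIN2B: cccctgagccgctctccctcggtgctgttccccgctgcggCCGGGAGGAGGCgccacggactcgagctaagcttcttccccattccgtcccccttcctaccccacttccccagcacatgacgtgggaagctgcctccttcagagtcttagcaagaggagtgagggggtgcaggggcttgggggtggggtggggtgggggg
CACNB4: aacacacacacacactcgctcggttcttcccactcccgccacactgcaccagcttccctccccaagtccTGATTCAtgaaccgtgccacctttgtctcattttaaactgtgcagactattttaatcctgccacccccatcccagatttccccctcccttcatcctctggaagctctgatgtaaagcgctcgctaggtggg
ELAVL2: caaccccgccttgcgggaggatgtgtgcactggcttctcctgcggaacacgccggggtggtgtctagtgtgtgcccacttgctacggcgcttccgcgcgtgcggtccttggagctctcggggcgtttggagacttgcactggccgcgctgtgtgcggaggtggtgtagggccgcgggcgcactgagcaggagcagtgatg
The 8 windows range from 40.5% GC with 3 CG dinucleotides at TCF4 to 79% GC with 19 at TNK2 and 89% GC with 16 at UPF3A. A match is a description of the letters and not evidence that a factor binds.

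Promoters called at E60 alone were narrower than those called at all 4 stages, of mixed base composition, and often lay beside a start and not on it. Their median width was 436.5 bp (95% interval 417 to 456, n = 1166), against 1278 bp (1262 to 1292) in the 8348 promoters called at all 4 stages, 292 bp (279 to 309) in the 488 promoters called at E80 alone and 339 bp (335 to 342) in the 10125 distal regions called at E60 alone. These are widths of merged regions: an all-stage promoter joins peaks of 4 stage sets, a member those of 1. How far the merging sets the widths, and with them the shares that cover a start, was not tested. An annotated start lay inside 530 of the 1166 regions, 45.5% (42.6 to 48.4), against 92.6% (92.0 to 93.2) of promoters called at all 4 stages and 29.5% (25.5 to 33.8) of those called at E80 alone. Of the others, 251 lay upstream and 385 downstream of the nearest start. Most held a single E60 peak (1147), 18 held 2 and 1 held 3, which makes 1186 peaks. Across the 20 autosomes they formed between 6.04% and 9.40% of the promoter regions called at any stage, with 7.27% overall (n = 16030). On either side of the 1000 bp limit, 69 members lay over 900 bp from the nearest start and 62 E60-alone regions outside the set lay up to 1100 bp away. Their median widths were 391 and 346.5 bp, their median GC contents 57.1% and 55.0%, and 29.0% and 22.6% of them were CpG-rich in the sense used next.

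Nearly as many members were CpG-rich as not. GC content over the central 301 bp had a median of 62.8% (61.8 to 63.8), between the 68.1% of promoters called at all 4 stages and the 52.2% of promoters called at E80 alone, and above the 48.5% of distal regions called at E60 alone. The CpG ratio, the number of CG dinucleotides over that expected from base composition, had a median of 0.617 (0.569 to 0.649), against 0.839, 0.275 and 0.244 in the same sets. Counting a region as CpG-rich when its GC content was at least 50% and its CpG ratio at least 0.6, 578 of 1166 members were CpG-rich, 49.6% (46.7 to 52.5), against 83.5% (82.6 to 84.2) of promoters called at all 4 stages, 19.1% (15.7 to 22.8) of E80-alone promoters and 6.10% (5.64 to 6.59) of distal E60-alone regions. Composition differed by width class: among regions of 451 to 650 bp, 56.1% of 253 members and 56.1% of 369 promoters called at all 4 stages were CpG-rich, and among those of 301 to 450 bp the shares were 50.7% of 308 and 28.2% of 103. Over 650 bp, the class that holds 7859 of the 8348 all-stage promoters, the order was opposite to that at 301 to 450 bp, with 60.9% (55.2 to 66.4) of 307 members against 85.6% (84.8 to 86.4). A start was still covered less often at 451 to 650 bp, in 54.5% of members (48.2 to 60.8) against 77.5% (72.9 to 81.7).

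**Figure D1:**
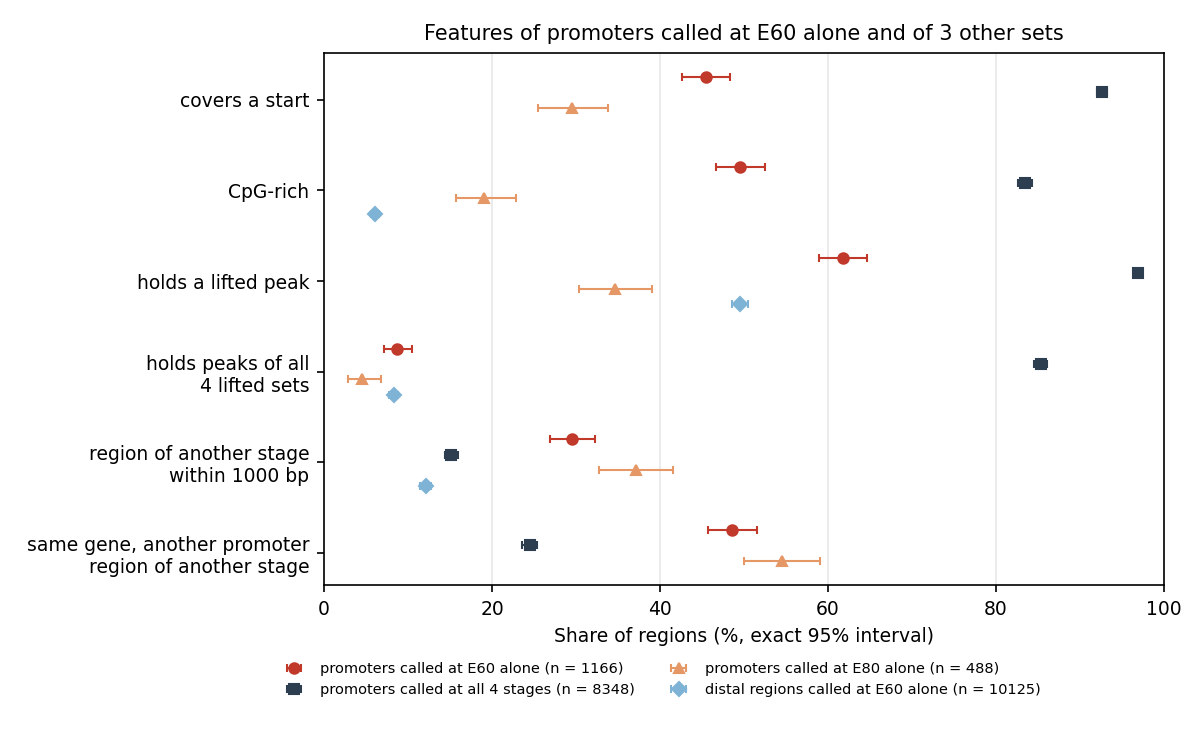
Share of regions in percent (x axis) with each of 6 features (y axis) in promoters called at E60 alone, promoters called at all 4 stages, promoters called at E80 alone and distal regions called at E60 alone; points are shares and bars exact 95% intervals. The E60-alone promoters sit between the all-stage and the E80-alone promoters for covering a start (45.5%), being CpG-rich (49.6%) and holding a lifted peak (61.8%). A neighbour within 1000 bp is one called at E50, E80 or E85 in every set, so for E80-alone promoters it can be a region called at E80 alone.

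The CpG-rich and the other members differed in more than composition. Of the 578 CpG-rich members, 57.4% (53.3 to 61.5) covered a start, against 33.7% (29.9 to 37.6) of the 588 others, and their median width was 495.5 bp (464 to 534) against 370 bp (348 to 394). Only lncRNA starts lay in reach of 6.75% (4.84 to 9.11) of the CpG-rich members and 18.2% (15.2 to 21.6) of the others. For 54.3% (50.2 to 58.4) of the CpG-rich members the genes they mark had no other promoter region called at any stage, against 34.5% (30.7 to 38.5). An all-stage promoter elsewhere in the gene was present for 13.8% (11.1 to 16.9) against 32.5% (28.7 to 36.4).

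**Figure D2:**
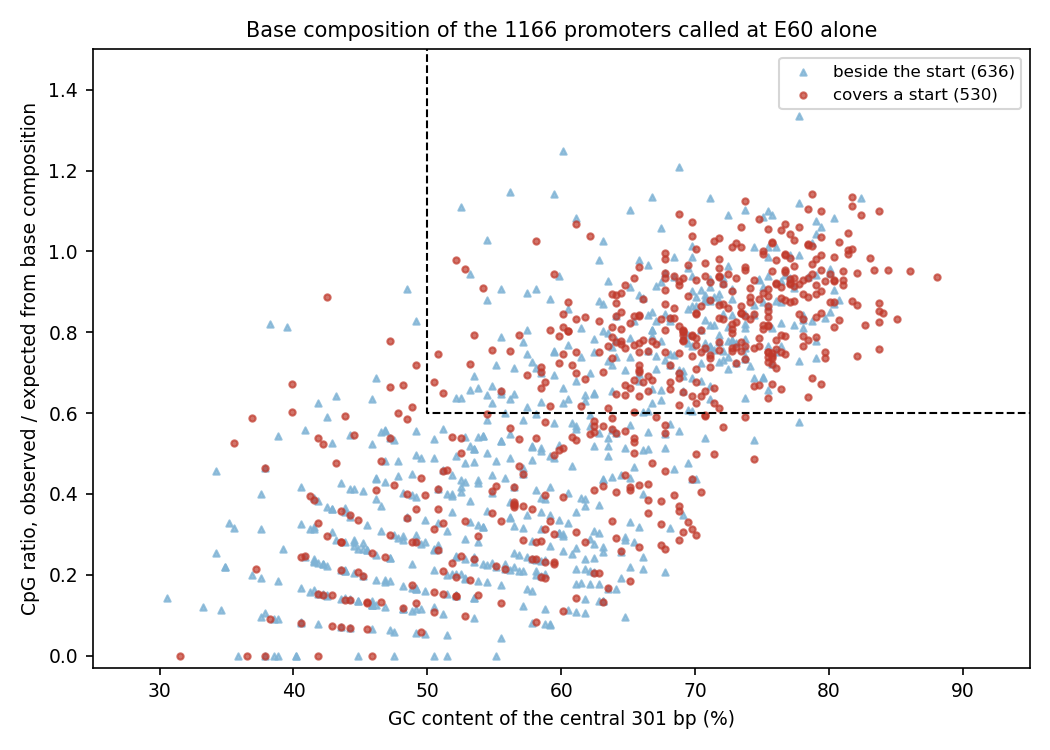
GC content of the central 301 bp in percent (x axis) against the CpG ratio (y axis) for each of the 1166 members, with those that cover a start (530) as circles and those beside it (636) as triangles. The dashed lines enclose the 578 CpG-rich regions; 62.6% of the members covering a start and 38.7% of those beside it fall there.

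By gene, 981 of 19839 autosomal protein-coding genes (4.94%) and 181 of 7792 lncRNA genes (2.32%) had an E60-alone promoter. Only lncRNA starts were in reach of 146 regions, 12.5% (10.7 to 14.6), only protein-coding starts of 975, and both of 45. For 753 of the 981 protein-coding genes the region lay at the outermost annotated start or at a start within 1000 bp of it. For the other 228 it lay only at starts farther inside the gene. The genes fell into 3 kinds. In 254 (25.9%, 23.2 to 28.8) another promoter region was called at all 4 stages, in 255 (26.0%, 23.3 to 28.9) another was called at some other stage, and in 472 (48.1%, 45.0 to 51.3) every called promoter region was an E60-alone region. For lncRNA genes the last class held 140 of 181, 77.3% (70.5 to 83.2). Among the 11088 protein-coding genes with no promoter region called at all 4 stages, 727 had an E60-alone promoter (6.56%). Of the 981 loci, taken as the gene body and 5000 bp upstream, 221 (22.5%, 20.0 to 25.3) held no region called at E50, E80 or E85.

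Many members were satellites of a region called at other stages too. A region called at E50, E80 or E85 lay within 1000 bp of 344 members, 29.5% (26.9 to 32.2), against 12.1% (11.5 to 12.7) of distal E60-alone regions. The same count gave 37.1% (32.8 to 41.5) of E80-alone promoters. For them it includes neighbours called at E80 alone and leaves out those called at E60 alone, so it is not a like comparison. Among members, such a neighbour lay near 14.9% (11.98 to 18.2) of those that cover a start and 41.7% (37.8 to 45.6) of those that do not. Leaving out the E80 culture, and so calling a promoter E60-alone whether or not it was called at E80, raised the number of regions from 1166 to 4435 and of protein-coding genes from 981 to 3570, whereas leaving out E50 or E85 gave 1171 or 1197 regions. Accordingly, 3269 promoter regions were called at E60 and E80 and at neither other stage. E50, E80 and E85 had 75, 488 and 106 promoters called at that stage alone.

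Deep-layer neuron genes had the highest share among the cell type marker lists. Of 9 such genes, 6 had an E60-alone promoter (66.7%, 29.9 to 92.5, beside 4.94% of all protein-coding genes). All 9 had a promoter called at E60 in some pattern, beside 66.05% of all protein-coding genes. FEZF2 encodes the zinc finger factor that specifies subcerebral projection neurons. Its start was covered by a region of 1879 bp called at E50 and E60 (chr2:118537876-118539754), and the E60-alone region of 564 bp (chr2:118537192-118537755), which overlaps an exon, began 947 bp downstream of the start, 120 bp from the first. The FEZF2 locus held 3 regions, all called at E60, 1 also at E50 and none at E80 or E85. BCL11B, whose product CTIP2 acts downstream of FEZF2, had an E60 and E80 region over its start and an E60-alone region of 793 bp (chr7:161469863-161470655) with a gap of 655 bp to it.

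ETV1, an ETS factor of layer V neurons, had a region of 5137 bp called at all 4 stages and, 799 bp away, an E60-alone region of 658 bp (chr3:101024083-101024740) over another start, with a CpG ratio of 0.138. FOXP2, a forkhead factor of layer VI neurons, had 2 E60-alone regions of 389 and 519 bp at an internal start (chr3:140635464-140635852 and chr3:140636044-140636562) that were poor in CpG, with GC contents of 38.9% and 43.2%, while another start carried a region of 1941 bp called at E60, E80 and E85. LMO3, a LIM-domain cofactor, had 2 E60-alone regions of 369 and 513 bp on either side of 2 regions called at E60 and E80. CRYM, which encodes the thyroid hormone binding protein mu-crystallin, was the only member of the list with no other promoter region: its 350 bp region (chr20:20002324-20002673) covered the start and was CpG-rich. So 5 of the 6 genes had another promoter region called at another stage as well. Among all 981 protein-coding genes with a member, 48.1% had E60-alone promoter regions only. The list had 3 genes with a promoter called at all 4 stages. The count of 6 was 3 when members within 1000 bp of a region called at another stage were left out, 3 among regions without lifted peaks, and 1 with curated starts alone.

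**Figure D3:**
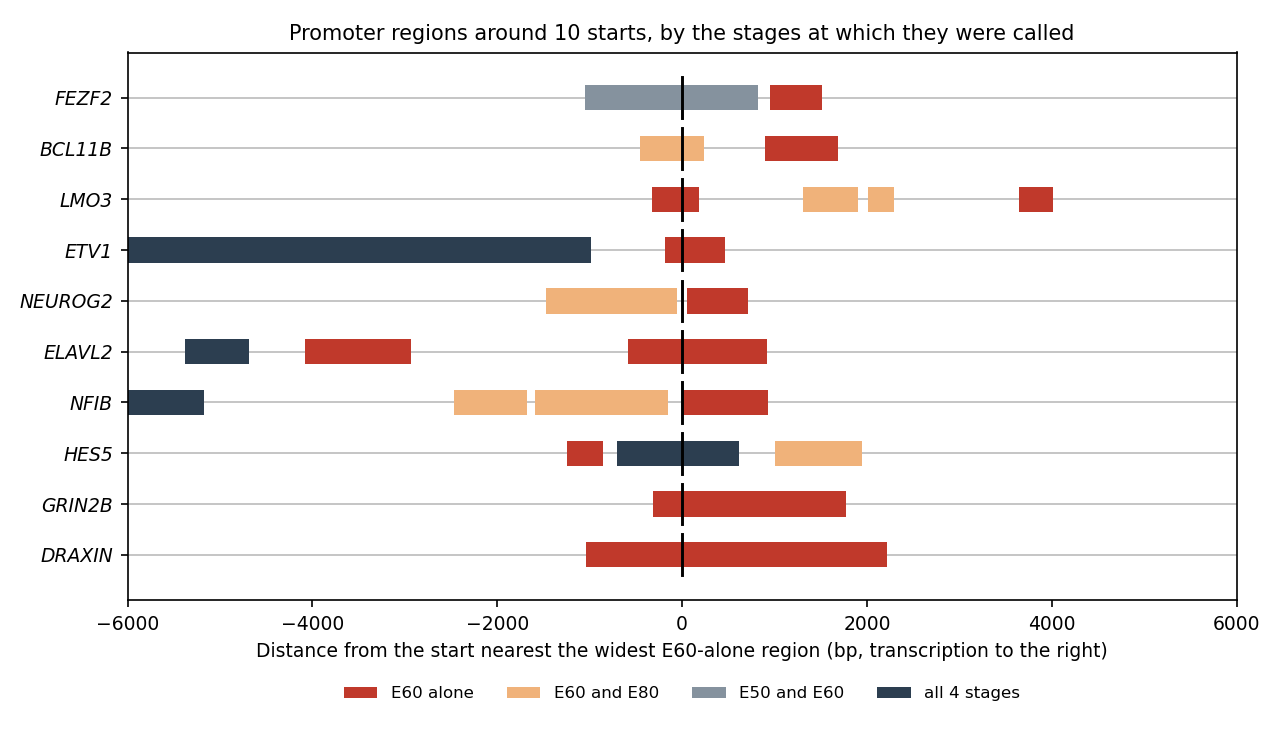
Promoter regions of 10 genes (rows) along the distance in bp from the start nearest each gene's widest E60-alone region (x axis, transcription to the right, vertical tick at the start), drawn to scale and coloured by the stages at which they were called; regions farther away are not drawn. Red E60-alone regions flank regions called at other stages at FEZF2, BCL11B, LMO3, NEUROG2, NFIB and HES5, and cover the start at GRIN2B and DRAXIN with no other promoter region.

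Among pan-neuronal genes, 4 of 11 had an E60-alone promoter (36.4%, 10.9 to 69.2, beside 4.94% of all protein-coding genes). MAP2, the dendritic microtubule protein, had 3, of 701, 1129 and 283 bp, each within 277 bp of a region called at other stages too, of which 2 were called at all 4. MAPT, the axonal protein tau, had 1 of 295 bp, 598 bp from a region called at all 4 stages. ELAVL4, a neuronal RNA-binding protein, had 2 of 602 and 828 bp (chr1:174357014-174357615 and chr1:174357747-174358574), 50510 and 49551 bp from the nearest region called at another stage, both poor in CpG. INA, a neuronal intermediate filament, had 1 of 535 bp, its only called promoter, with a CpG ratio of 1.13. None of the 4 covered the start of its gene, as their nearest starts lay between 6 and 989 bp away.

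In intermediate progenitors, 2 of 9 genes were hit (22.2%, 2.81 to 60.0, an interval that includes the 4.94%). NEUROG2, the proneural factor that drives glutamatergic neuron formation, had an E60 and E80 region over 1 annotated start and, 106 bp from it, an E60-alone region of 665 bp (chr5:110796200-110796864) that began 53 bp downstream of another start. ELAVL2, which encodes another neuronal RNA-binding protein, had 4 E60-alone regions and a region of 692 bp called at all 4 stages. Those of 1155 and 1512 bp lay 606 and 4100 bp from it. Those of 319 and 314 bp, at another start, lay 23969 and 23375 bp from it. The widest covered the start whose upstream sequence is printed above (chr15:59895860-59897371). Of 13 radial glia genes only HES5, a Notch target that keeps progenitors undifferentiated, had 1 (7.69%, 0.195 to 36.0, which includes the 4.94%). It was a 385 bp region upstream of the start and 154 bp from an all-stage region. All 13 radial glia genes had a promoter called at all 4 stages. NFIB, listed under astrocytes and also a progenitor factor, had 1 region of 924 bp at an internal start beside 4 others, 2 of them called at all 4 stages. AGT, the angiotensinogen gene of astrocytes, had 1 of 464 bp, the only region in its locus. NFIB and AGT were the 2 hits among 13 astrocyte genes (15.4%, 1.92 to 45.45), an interval that includes the 4.94%.

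No E60-alone promoter was found for the 10 upper-layer neuron, 9 outer radial glia, 9 oligodendrocyte, 8 telencephalon or 12 cell cycle genes, nor for the 10 microglia genes. With 8 to 12 genes a count of 0 says little, since the upper bounds of the intervals lie between 26.5% and 36.9%. These lists differed in their other calls: 11 of 12 cell cycle genes had a promoter called at all 4 stages, whereas the 10 microglia genes had no promoter region at any stage. The labelled tissue was cortex. A promoter was called at E60 for 7 of 8 telencephalon, 13 of 13 radial glia and 10 of 11 pan-neuronal genes. So it was for 66.05% of all protein-coding genes and for 12 of 12 cell cycle genes. Genes of other cell types and regions were hit in small numbers: FLT1 (VEGF receptor) of 10 endothelial genes (10%, 0.253 to 44.5) and ACTA2 (smooth muscle actin) of 12 mesenchyme and mural cell genes (8.33%, 0.211 to 38.5). LMX1A and RSPO3 were hit of 10 choroid plexus and cortical hem genes, and IRX2 and IRX3 of 10 midbrain and hindbrain genes (each 20%, 2.52 to 55.6). NPY and DLX1 were hit of 15 interneuron genes (13.3%, 1.66 to 40.5). Each of these intervals includes the 4.94% of all protein-coding genes. At all of these genes except DLX1 every called promoter region was an E60-alone region, beside 48.1% of all 981 protein-coding genes with a member. NPY had 1289 bp, IRX2 had 1182 bp, ACTA2 had 1143 bp and IRX3 had 1084 bp, all wide for the set. The part of other cell types in these calls was not tested, and in a bulk sample more cells of a type and a more open promoter per cell cannot be told apart.

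**Figure D4:**
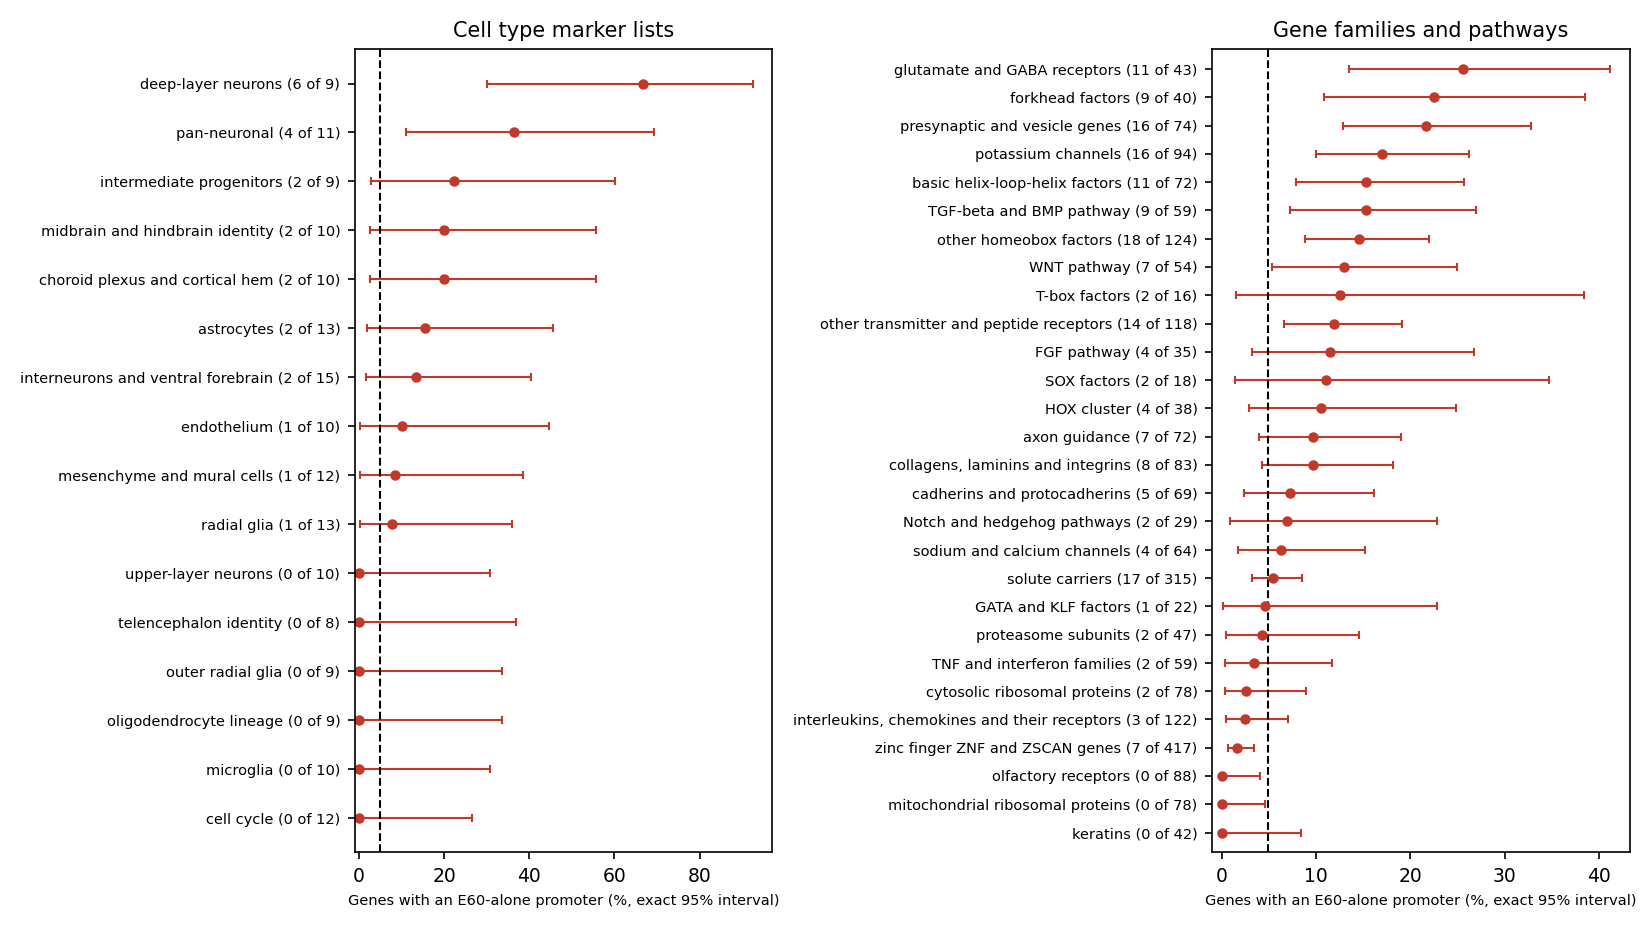
Share of each list's autosomal genes with an E60-alone promoter, in percent with exact 95% intervals (x axis), for 16 cell type marker lists (left) and 28 gene families and pathways (right), with counts in the row names. The dashed line is the 4.94% of all protein-coding genes; deep-layer neurons (66.7%) and glutamate and GABA receptors (25.6%) lie highest, and zinc finger genes (1.68%) lie below it.

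Glutamate and GABA receptors had the highest share among the gene families, with forkhead factors (22.5%, described with the other transcription factors), presynaptic genes and potassium channels next. Of 43 glutamate and GABA receptor genes 11 had an E60-alone promoter (25.6%, 13.5 to 41.2), of 74 presynaptic and vesicle genes 16 (21.6%, 12.9 to 32.7) and of 94 potassium channel genes 16 (17.0%, 10.1 to 26.2), beside 4.94% overall. A promoter was called at all 4 stages for 16.3% of the receptor and 17.0% of the channel genes, against 44.1% of all protein-coding genes. For the presynaptic genes the share was closer to that, 36.5%. Counted only among genes without an all-stage promoter, where the share over all genes was 6.56%, 10 of 36 receptor, 14 of 47 presynaptic and 14 of 78 channel genes were hit. Among regions without lifted peaks the counts were 5 receptor, 5 presynaptic and 4 potassium channel genes, and with curated starts alone they were 1, 5 and 4. Sodium and calcium channels (4 of 64) and solute carriers (17 of 315, 5.40%) were near the overall share. More than 1 start was annotated for 67.3% (64.2 to 70.2) of the 981 genes with a member and 52.9% of all protein-coding genes. The list shares are not adjusted for the number of annotated starts.

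GRIN2B encodes an NMDA receptor subunit prominent before birth. Its E60-alone region was 2089 bp wide (chr11:15368720-15370808), covered the start, overlapped an exon, held lifted peaks of all 4 lifted sets and was its only called promoter, 38062 bp from the nearest region called at another stage. GRM3 and GRM5, metabotropic glutamate receptors, had 1 region of 1494 bp with 2 E60 peaks and 3 regions of 469, 418 and 362 bp, and no other promoter. GABRB2, a GABA-A receptor subunit, had 2 of 239 and 984 bp, also alone. GRIK2, a kainate receptor subunit, had 1 of 1061 bp over 1 start, and a region called at E60 and E80 over another. Of the 11 receptor genes, 6 had E60-alone regions as their only called promoters, near the 48.1% of all 981 protein-coding genes with a member.

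At the presynaptic terminal, CBLN2, a secreted synapse organiser, had 2 E60-alone regions of 431 and 853 bp beside an E60 and E80 region over the start. DOC2A, a calcium sensor of vesicle release, had 1 of 697 bp as its only promoter. KCND2, the A-type channel Kv4.2, had 1 of 1213 bp over the start (chr3:146680267-146681479), alone and 256261 bp from any region called at another stage. KCNAB1, a channel beta subunit, had 1 of 1113 bp, and HCN4, a hyperpolarization-activated channel, 1 of 843 bp, also alone. KCNMB2, a subunit of calcium-activated channels, had 1 of 883 bp and a narrower region at another start called at E60, E80 and E85. Outside these lists, DPP6, which encodes a partner of Kv4 channels, had E60-alone regions of 838 and 2691 bp over 2 alternative starts, while regions over other starts were called at all 4 stages (3048 bp) and at E60 and E80 (687 bp).

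Transcription factor families differed in their shares, beside 4.94% of all protein-coding genes: homeobox, forkhead and basic helix-loop-helix genes had higher shares (the interval of the HOX genes includes it), GATA and KLF factors had 1 of 22 (4.55%, 0.115 to 22.8), and ZNF and ZSCAN zinc finger genes had a lower share, 7 of 417 (1.68%). Of 124 homeobox genes outside the HOX clusters 18 had an E60-alone promoter (14.5%, 8.84 to 21.97). For 15 of the 18 no other promoter was called, beside 48.1% of all 981 protein-coding genes with a member. Among them were DBX2 (2401 bp), a factor of neural tube patterning, IRX2, IRX3, LMX1A and NKX1-2 (868 bp), whereas DLX1, POU2F2 and POU4F2, the last 2 named after their values were seen, had other promoters. Of 40 forkhead genes 9 were hit (22.5%, 10.8 to 38.5), among them FOXF1 (924 bp), FOXL2 (696 bp) and FOXD3 (582 bp), factors of mesenchyme, ovary and neural crest, all without another called promoter, and FOXK2 beside an all-stage region. Of 38 HOX genes, which pattern the trunk and hindbrain and are normally silent in cortex, 4 had an E60-alone promoter (10.5%, 2.94 to 24.8; HOXA6, HOXA10, HOXA13 and HOXD13, of 439, 232, 393 and 668 bp). Only 5 HOX genes had a promoter called at E60 at all (13.2%, beside 66.05% of all protein-coding genes), and 33 had none at any stage. Of 72 basic helix-loop-helix genes 11 were hit (15.3%, 7.88 to 25.7), among them TCF4, a partner of proneural factors. Its E60-alone region of 2321 bp (chr18:24768763-24771083) held 3 E60 peaks, the most of any member, and its other starts carried 3 regions called at all 4 stages and 2 called at E60 and E80.

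Among signalling genes, beside 4.94% of all protein-coding genes, the TGF-beta and BMP list had 9 of 59 (15.3%, 7.22 to 26.99) and the WNT list 7 of 54 (12.96%, 5.37 to 24.9). The FGF list had 4 of 35 (11.4%, 3.20 to 26.7), axon guidance 7 of 72 (9.72%, 4.00 to 19.01) and Notch and hedgehog 2 of 29 (6.90%, 0.846 to 22.8), and these 3 intervals include the overall share. TGFB2 had a region of 2386 bp (chr1:75842560-75844945), 300 bp from an all-stage region. INHBB, a subunit of activins and inhibins, had a 549 bp region over the start between an E60 and E80 region on 1 side and an E60, E80 and E85 region on the other, with a gap of 71 bp to the nearer. LEF1, a nuclear effector of WNT signalling, had 2 of 613 and 572 bp beside an E60 and E80 region over another start. SLIT1, a repellent axon guidance ligand, had 1 of 737 bp over its start and no other promoter, while SLIT2 had 1 of 577 bp beside regions called at E60 and E80 or E60, E80 and E85. DRAXIN, a repellent guidance protein of commissural axons, had the widest member of all, 3258 bp (chr1:212767517-212770774). It also covers a start of MAD2L2, a DNA repair and mitotic checkpoint gene, of which another promoter was called at all 4 stages, so the region cannot be assigned to either gene.

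Several families had shares below the 4.94% of all protein-coding genes. Of 417 ZNF and ZSCAN zinc finger genes 7 had an E60-alone promoter (1.68%, 0.677 to 3.43), and 281 had a promoter called at all 4 stages. None of 78 mitochondrial ribosomal protein genes had 1 (upper bound 4.62%). Of 78 cytosolic ribosomal protein genes 2 did (2.56%, 0.312 to 8.96), RPL15 and RPL23A, with regions of 361 and 374 bp beside broad promoters. Interleukins, chemokines and their receptors had 3 of 122 (2.46%, 0.510 to 7.02), and the TNF and interferon families 2 of 59 (3.39%, 0.413 to 11.7). The intervals of these last 3 lists include the 4.94%. Proteasome subunits, with 2 of 47 (4.26%, 0.520 to 14.5), were near the overall share. None of 88 olfactory receptor and 42 keratin genes had 1, and 87 and 39 of these had no promoter called at any stage.

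Among the widest members, MDFI, an inhibitor of myogenic factors, had 2543 bp as its only promoter, TNK2, a tyrosine kinase gene, had 2578 bp beside 4 promoters called in other patterns, and UPF3A, a nonsense-mediated decay factor, had 2441 bp. SRCIN1, a synaptic regulator of SRC kinase, had 4 separate E60-alone regions of 295 to 598 bp. Those of 295, 598 and 431 bp lay 1820, 424 and 591 bp from a region of 1036 bp called at E60 and E80. That of 320 bp lay at a start farther inside the gene. PDE4B, a cAMP phosphodiesterase, had 3 at alternative starts, of 2017, 1112 and 296 bp. Some loci held E60-alone regions and none of another stage: PRDM6 and SRRM4 had 4 regions each, and ADAMTS5, MPPED1, SLC17A8 and TFAP2B 3 each. SRRM4 encodes a splicing factor of neuronal microexons and SLC17A8 the vesicular glutamate transporter VGLUT3. At PRDM6, 3 of the 4 lay at the start as separate regions of 300, 346 and 369 bp.

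The motif content of members was also between that of broad promoters and of distal regions. Within 150 bp of the centre and on either strand, the SP/KLF word GGGCGG occurred in 48.6% (45.7 to 51.5) of members, against 68.9% of promoters called at all 4 stages, 24.0% of E80-alone promoters, 14.9% of distal E60-alone regions and 62.0% of all 16030 promoters called at any stage. Within members it occurred in 73.4% of the CpG-rich and 24.3% of the others. The ETS word CCGGAAG, typical of housekeeping promoters, occurred in 2.92% (2.03 to 4.05) of members against 14.9% (14.1 to 15.7) of all-stage promoters and 10.9% of all promoters. At a GC content of 60 to 70% the shares were 4.19% (2.31 to 6.93) of 334 members and 19.2% (17.8 to 20.6) of 3265 all-stage promoters. The motif of NRF1, a factor of mitochondrial and other housekeeping genes, occurred in 1.29% against 7.57%, and at 60 to 70% GC in 1.80% (0.662 to 3.87) against 8.45% (7.52 to 9.46). In this class of GC content the intervals of members and all-stage promoters did not overlap for either motif. They cover counting error alone and are not a test.

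**Figure D5:**
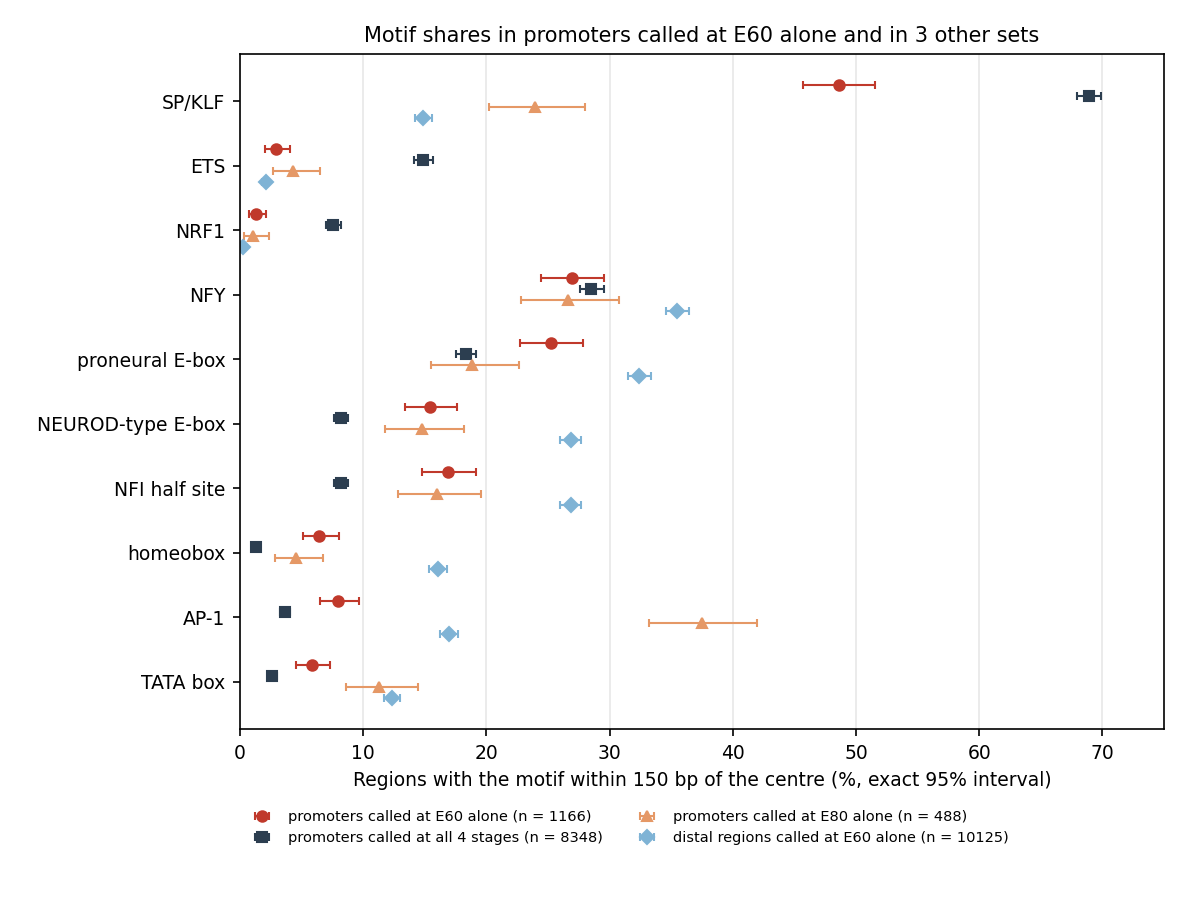
Share of regions in percent (x axis, exact 95% intervals) that hold each of 10 motifs (y axis) within 150 bp of the centre, in the same 4 sets. E60-alone promoters lie near E80-alone promoters for ETS and NFI, and far below them for AP-1 (7.98% against 37.5%).

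Motifs of neural factors were more frequent than in all-stage promoters. The proneural E-box CAGCTG occurred in 25.2% (22.7 to 27.8) of members, 18.3% (17.5 to 19.2) of all-stage promoters and 19.3% of all promoters and at 60 to 70% GC in 27.8% (23.1 to 33.0) against 19.1% (17.7 to 20.4) of all-stage promoters. The NFI site TTGGCA occurred in 16.9% against 8.18%, 9.58% of all promoters, and at 60 to 70% GC in 15.9% (12.1 to 20.2) against 8.61% (7.67 to 9.62). The homeobox word TAATTA occurred in 6.43% against 1.27%, 2.22% of all promoters, and below 50% GC in 21.9% (16.7 to 27.7) of 233 members against 11.6% (8.52 to 15.3) of 371 all-stage promoters. Over all GC contents these shares were below those of distal E60-alone regions, 32.4%, 26.8% and 16.1%. The word TGANTCA, used here for AP-1 (FOS and JUN factors) with any base in the centre, occurred in 7.98% (6.49 to 9.68) of members, 3.67% of all-stage promoters and 7.22% of all promoters, but in 37.5% (33.2 to 41.96) of E80-alone promoters. Below 50% GC the AP-1 shares were 20.6% (15.6 to 26.4) of members and 55.0% (47.8 to 61.9) of 202 E80-alone promoters.

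Peaks tagged as lifted, from 4 sets that the labels do not define, were merged with the stage peaks in the deposited table. At least 1 lifted peak lay in 721 members, 61.8% (59.0 to 64.6), against 96.9% of all-stage promoters, 34.6% of E80-alone promoters and 49.5% of distal E60-alone regions, and lifted peaks of all 4 sets lay in 8.75% against 85.3% of all-stage promoters. The share was larger in wider members, from 29.5% (24.4 to 35.1) of members up to 300 bp to 88.3% (84.1 to 91.6) of those over 650 bp, and lifted peaks can themselves widen a merged region. Among the 445 members without a lifted peak, the median width was 310 bp and 47.2% (42.5 to 52.0) were CpG-rich.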

How the data were processed

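Omni-ATAC libraries of macaque cortex cultures at 4 stages were analysed through the merged peak table of 112696 regions. The authors deposited, for every region, coordinates and a list of peak names with stage codes, and these names are the only measurement used; they follow genome order and hold no score. Per the submitters' processing notes, reads were handled with cutadapt 4.4, SAMtools 1.15 and Bowtie2 2.5.1 on the build rheMac10. How peaks were called, filtered or pooled over libraries is not given in the sources used here. A further 8 columns of values have no names, cannot be tied to libraries and were not used in any step, so depth was not used here. Groups are the 4 stages, each with 1 culture and 2 technical libraries that the peak names do not separate.

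Regions were joined to gene models of NCBI Macaca mulatta annotation for Mmul_10, the assembly rheMac10 names; all sequence names were found there, coordinates are 1-based as in the table, and printed sequences are from that assembly. Shares, medians and motif matches (28 motifs, 301 bp windows) were computed in Python 3.11.15 with pandas 2.3.3, NumPy 2.4.6 and SciPy 1.17.1, drawn with matplotlib 3.10.9, and the counting was tested on simulated data. The members, the 44 gene lists and the motifs were chosen with earlier results of these data known, so their counts are not independent evidence. Named genes are marker-list genes with a member, up to 4 with the widest member per family, the 10 widest, up to 8 with several members, the 8 loci with most E60-alone regions and none of another stage, and the 8 with most E60 peaks in 1 region. Alternatives were other windows around starts, curated starts alone, regions without lifted peaks, regions apart from those of other stages, each other culture left out, the X chromosome added, other motif and composition windows and, added after the data were seen, members covering a start alone.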

Additional observations from a re-analysis of the deposited data

How the results depend on the processing

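No paired analysis was possible because the results come from no test and the peak sets do not separate the libraries that share a replicate number. With 1 culture per stage, a culture was left out only as a whole stage. The calls have no depth beside them here, and every share covers counting error alone.

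The size of the set depended on E80 and on the choice of starts. Without the E80 culture there were 4435 regions at 3570 protein-coding genes, and 13.96% of E60-alone regions were promoters. With curated starts alone there were 167 regions at 162 genes, 1.48% of E60-alone regions, of which 37.1% lay near a region of another stage, 35.9% shared the gene with a promoter of another stage, 0 had lncRNA starts only and 4.79% held the ETS motif. The lists then counted 1 deep-layer, 1 receptor, 1 homeobox, 4 potassium channel and 5 presynaptic genes. The cause was not tested; this alternative tests fewer starts.

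Regions without lifted peaks numbered 445 at 376 genes (8.01% of such E60-alone regions), with a median width of 310 bp, a median CpG ratio of 0.557, 32.8% near a region of another stage, 15.3% with lncRNA starts only, AP-1 in 10.1% and the homeobox word in 8.31%. The lists then counted 3 deep-layer, 5 receptor, 6 homeobox, 4 potassium channel and 5 presynaptic genes. Without members near a region of another stage, promoters were 8.46% of E60-alone regions, with medians of 461 bp, 64.4% GC and a CpG ratio of 0.661, 29.1% sharing the gene with a promoter of another stage, 14.8% with lncRNA starts only, SP/KLF in 51.6%, and 3 deep-layer and 10 potassium channel genes.

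Windows of 500 and 2000 bp gave promoters as 7.65% and 14.2% of E60-alone regions, median widths of 466 and 402 bp, GC contents of 64.8% and 60.1%, CpG ratios of 0.676 and 0.510, lifted peaks in 65.5% and 58.8%, a promoter of another stage in the same gene for 37.6% and 58.4%, AP-1 in 6.37% and 9.73% and SP/KLF in 53.7% and 42.6%. At 500 bp, 22.4% lay near a region of another stage. Over 1000 bp each side of the nearest start, the medians were 56.3% GC and a CpG ratio of 0.563.

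In whole regions, then within 75 bp of the centre, the motif shares were 11.7% and 4.72% for AP-1, 4.80% and 1.89% for ETS, 23.9% and 9.09% for NFI, 57.5% and 33.5% for SP/KLF, 8.58% and 3.69% for homeobox and 36.2% and 14.7% for the proneural E-box, as longer windows hold more matches.

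Members that cover a start, an alternative chosen after seeing the data, numbered 530 at 504 genes (4.69% of E60-alone regions), with medians of 560 bp, 67.8% GC and a CpG ratio of 0.742. Lifted peaks lay in 74.9%, 14.9% lay near a region of another stage, 38.1% shared the gene with a promoter of another stage and 8.68% had lncRNA starts only. AP-1 occurred in 4.34%, NFI in 13.2%, SP/KLF in 59.2% and homeobox in 4.91%. The lists then counted 7 receptor, 11 homeobox, 10 potassium channel and 7 presynaptic genes, and 4 deep-layer genes.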
